A study of Caenorhabditis elegans with 2 samples.

Results

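The strong autosomal distal intergenic regions are stretches of the Caenorhabditis elegans genome with a high ChIP-seq signal for CEH-6 that lie away from protein-coding genes and their proximal promoters. Each region has a signal, the value that the authors' peak caller gave it against 1 control, and a summit, the base at which that signal was highest. The members were selected on that signal in the list made from the reads of both replicates together, called the pooled list here. From the 3000 regions of highest pooled signal, those on chromosomes I to V were kept if the summit lay over 100 bp from any tRNA, snoRNA, snRNA, rRNA or miRNA gene, outside every protein-coding gene body, and not within 1000 bp upstream of a protein-coding transcript start. This gave 421 members of the 30000 regions in the pooled list. Of the other regions among the 3000, 1127 had a summit in a protein-coding gene body and 538 in a promoter, 679 lay on X or the mitochondrial genome, and the rest lay near a small RNA gene.

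Both libraries came from late embryos of strain OP748, labelled as pooled male and female animals aged 3.3 hours and synchronized by egg bleaching. The strain carries wgIs748, a ceh-6::TY1 EGFP 3xFLAG transgene with unc-119(+), in an unc-119(ed3) mutant in a VC2010 background. Sonicated chromatin was immunoprecipitated with anti-GFP, so the tagged transgene product was measured and not the endogenous protein. There were 2 biological replicates of 1 group, with no other genotype, stage or mock immunoprecipitation, and the depth of each library is unknown because the lists give signal and not reads. Whole embryos were used, so the cells behind a region are not known, and no marker of a cell type could be checked.

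CEH-6 is a POU homeodomain transcription factor, a class that recognises an octamer through a POU-specific domain joined to a homeodomain. In C. elegans it is known for roles in the excretory canal cell, rectal epithelial cells and some neurons. Most regulatory sequence in the compact worm genome lies close to genes, and elements further away have been described at fewer loci. Many worm messages are trans-spliced, so an annotated transcript start can lie downstream of the place where transcription begins, and a region counted as distal can lie nearer to that place than the annotation shows.

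The sequences below are the 201 bp windows around the summits of 12 members, read from the RefSeq copy of WBcel235 on the plus strand. The first 5 have the highest pooled signal of all members, and the single capital marks the summit base.
Rank 57, chrII:14496923-14497123, plus strand: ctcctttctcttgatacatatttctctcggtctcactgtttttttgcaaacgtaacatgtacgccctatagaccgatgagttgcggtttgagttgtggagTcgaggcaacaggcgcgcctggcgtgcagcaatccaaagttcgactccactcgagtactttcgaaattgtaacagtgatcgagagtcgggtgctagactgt
Rank 95, chrIV:8375503-8375703, plus strand: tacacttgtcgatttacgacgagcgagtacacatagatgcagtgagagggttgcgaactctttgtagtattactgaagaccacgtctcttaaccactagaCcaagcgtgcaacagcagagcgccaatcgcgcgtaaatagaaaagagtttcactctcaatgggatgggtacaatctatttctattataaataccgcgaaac
Rank 218, chrV:12510068-12510268, plus strand: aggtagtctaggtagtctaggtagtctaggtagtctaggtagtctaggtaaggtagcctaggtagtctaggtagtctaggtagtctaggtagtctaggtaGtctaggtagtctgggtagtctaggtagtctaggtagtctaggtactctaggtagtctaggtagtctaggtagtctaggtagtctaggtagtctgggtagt
Rank 234, chrIII:13062581-13062781, plus strand: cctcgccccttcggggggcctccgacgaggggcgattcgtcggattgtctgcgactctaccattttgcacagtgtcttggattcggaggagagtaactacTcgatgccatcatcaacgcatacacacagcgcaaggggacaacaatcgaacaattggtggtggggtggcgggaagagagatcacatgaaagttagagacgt
Rank 242, chrIII:5211241-5211441, plus strand: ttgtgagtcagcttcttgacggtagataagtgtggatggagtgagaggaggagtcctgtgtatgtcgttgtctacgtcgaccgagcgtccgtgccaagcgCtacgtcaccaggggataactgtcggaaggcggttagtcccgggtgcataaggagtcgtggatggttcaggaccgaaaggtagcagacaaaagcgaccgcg

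The next 2 are the strongest printed members with the CA repeat and with the GA repeat. Each CACACACA or GAGAGAGA match, on either strand, is in capitals.
Rank 270, chrIII:445562-445762, plus strand: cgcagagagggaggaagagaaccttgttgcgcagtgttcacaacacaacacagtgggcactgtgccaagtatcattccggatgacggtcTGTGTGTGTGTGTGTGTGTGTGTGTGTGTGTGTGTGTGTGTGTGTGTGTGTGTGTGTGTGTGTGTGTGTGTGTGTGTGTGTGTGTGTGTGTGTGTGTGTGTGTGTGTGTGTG
Rank 372, chrIII:4666909-4667109, plus strand: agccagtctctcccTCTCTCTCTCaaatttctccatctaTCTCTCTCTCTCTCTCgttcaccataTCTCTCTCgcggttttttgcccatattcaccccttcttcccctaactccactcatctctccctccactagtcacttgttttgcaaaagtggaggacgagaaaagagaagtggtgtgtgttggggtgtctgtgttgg

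The last 5 show the octamer ATGCAAAT, on either strand, in capitals in the strongest member that holds it and in the 3 members that hold 2 copies. The final member has tandem copies of the telomere unit TTAGGC in capitals.
Rank 431, chrV:14496541-14496741, plus strand: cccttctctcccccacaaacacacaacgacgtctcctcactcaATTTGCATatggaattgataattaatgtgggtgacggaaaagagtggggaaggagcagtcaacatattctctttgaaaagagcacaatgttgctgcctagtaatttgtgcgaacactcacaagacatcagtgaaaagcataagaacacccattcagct
Rank 1370, chrIII:6801027-6801227, plus strand: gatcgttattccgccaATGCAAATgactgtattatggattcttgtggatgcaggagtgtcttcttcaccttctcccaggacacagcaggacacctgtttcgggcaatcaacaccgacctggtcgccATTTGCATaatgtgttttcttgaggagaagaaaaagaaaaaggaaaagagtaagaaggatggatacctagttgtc
Rank 2034, chrII:5269087-5269287, plus strand: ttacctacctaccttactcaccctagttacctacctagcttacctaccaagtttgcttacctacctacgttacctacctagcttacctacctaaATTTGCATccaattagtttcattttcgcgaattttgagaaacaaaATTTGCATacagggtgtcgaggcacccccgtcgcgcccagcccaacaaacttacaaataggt
Rank 2911, chrIV:172937-173137, plus strand: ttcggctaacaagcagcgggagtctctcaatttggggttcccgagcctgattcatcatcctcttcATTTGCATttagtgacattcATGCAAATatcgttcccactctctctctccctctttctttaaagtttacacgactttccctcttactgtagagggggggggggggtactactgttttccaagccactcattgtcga
Rank 1582, chrII:2634804-2635004, plus strand: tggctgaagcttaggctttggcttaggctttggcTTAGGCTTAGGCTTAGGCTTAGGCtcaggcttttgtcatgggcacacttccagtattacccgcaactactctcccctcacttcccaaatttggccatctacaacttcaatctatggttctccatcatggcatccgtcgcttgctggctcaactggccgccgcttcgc

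The member of highest signal, rank 57, covers chrII:14496899-14497171 and had a pooled signal of 445, with 185 in the replicate 1 list and 257 in the replicate 2 list. It ranked at 61 and 57 in those lists, so it was near the top of both. It lies in a divergent gap of 3574 bp, 1003 bp upstream of dhs-8, a predicted dehydrogenase, and 2572 bp from cysl-2, a member of the cysteine synthase family. Its summit is within 100 bp of the non-coding RNA genes K10H10.11 and K10H10.14, and it lies just past the promoter limit of 1000 bp.

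The next member, rank 95, covers chrIV:8375506-8375731 and had a pooled signal of 352, with 147 in replicate 1 and 201 in replicate 2. It lies between the convergent ends of aagr-1 and D2096.7, 232 bp and 119 bp from those gene bodies, so it is intergenic but not far from a gene. Both replicates again placed it high, at ranks 96 and 102.

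Rank 218 had a pooled signal of 210 but 55.6 in replicate 1 and 166 in replicate 2, at ranks 466 and 136. Its window is a short tandem unit that the genome file soft-masks, and the 51 bases around its summit occur 2 times in the genome. Rank 242, with a pooled signal of 199, lies within 100 bp of srpr-2.1, annotated as a non-coding RNA gene, and its 51 summit bases also occur 2 times. The member at rank 1445 lies near the same gene, and rank 871 lies near srpr-3.

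The rest of the 15 members of highest signal spanned 151 to 201 in pooled signal, and each was also an IDR peak. IDR is the irreproducible discovery rate procedure, which compares ranks between replicates. Ranks 234 and 275 share 1 divergent gap of 15313 bp between F54F12.1 and Y39E4B.6, with pooled signals of 201 and 182. Rank 251, at 195, lies 1512 bp upstream of din-1, a transcriptional corepressor that acts with the nuclear receptor DAF-12, and 11626 bp from ghi-1. Rank 257, at 191, lies 4762 bp upstream of cmd-1, the calmodulin gene, with cutl-22 on the other side, and is within 100 bp of linc-128. Rank 270, at 186, lies between Y55B1BR.8 and Y55B1BR.6 in a long TG run. Rank 285, at 177, lies 1954 bp upstream of sup-26, an RNA-binding protein gene, with R10E4.3 on the other side.

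Further down, rank 332, at 162, lies in a convergent gap of 17092 bp between plg-1 and K01F9.2. Rank 348, at 157, lies 3381 bp upstream of ztf-6, a zinc finger factor gene, with sri-5 on the other side. Rank 355, at 156, lies between nhr-175, a nuclear hormone receptor gene, and cpt-5. Rank 368, at 152, lies 2880 bp upstream of chd-7, a chromodomain helicase gene, with W09C3.4 beyond. Rank 372, at 151, lies 1637 bp upstream of T23F11.4, with T23F11.11 on the other side.

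Signal over all members ran from 67.7 to 445, with a median of 79.1 and quartiles of 72.3 and 92.7. The strong promoter regions had a median of 87.7 and reached 790, and the strong genic regions had a median of 78.1. The limit falls in a dense part of the list. The 5 members just inside it had signals of 67.79 near cyp-42A1, 67.78 near ncl-1, 67.72 near emc-1, 67.72 near Y49G5A.1 and 67.68 near chdp-1. The 5 intergenic regions just outside had 67.57 near 2L52.1, 67.40 near F23B12.1, 67.22 near F13B12.6, 67.21 near gap-3 and 67.19 near sago-1. These values chose the members and carry no test.

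Replicate lists held a region over the summit of most members, as described in the plot of replicate ranks. A region covered the summit of 399 members in replicate 1 and 417 in replicate 2. Within each list's own 3000 regions of highest signal, 228 members (54.2%) were found in replicate 1 and 279 (66.3%) in replicate 2. Of the members, 134 (31.8%) were in both, and 48 (11.4%) were in neither. The pooled list is made from the same reads, so this is a description. Among all 30000 pooled regions 2.47% were IDR peaks, and 55 members (13.1%) were. IDR peaks are the pooled regions of highest signal, so nothing is read from that count. Of those 55 members, 49 were in the top 3000 of both replicates, against 85 of the other 366.

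**Figure D1:**
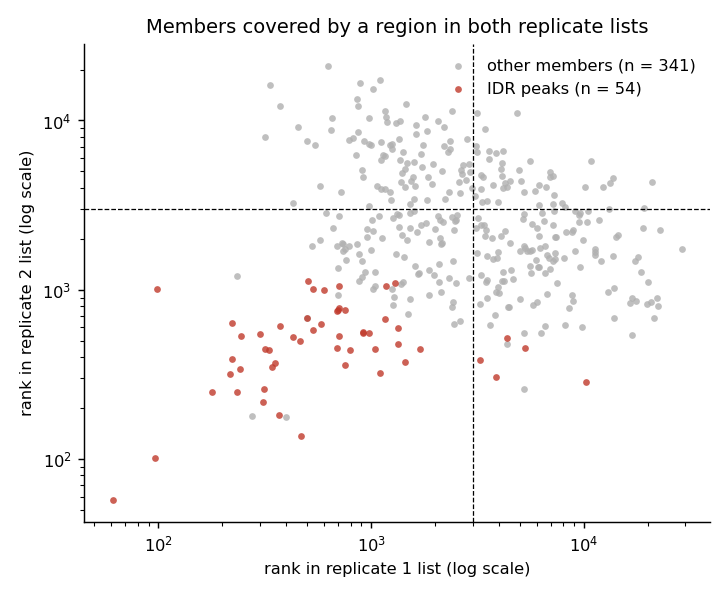
Rank of each member in the replicate 1 list (horizontal axis, log scale) and the replicate 2 list (vertical axis, log scale), for the 395 members covered in both; dashed lines mark rank 3000. The IDR peaks lie mostly in the lower left, and 134 members lie below both lines.

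Members were spread over the 5 autosomes, with 80, 88, 87, 72 and 94 in order from I to V. Their nearest protein-coding start lay at a median of 2536 bp from the summit, and 62 members (14.7%) had none within 5000 bp. The summit was upstream of that start in 315 members (74.8%), against 67.3% of the 4165 weaker intergenic regions, which meet the same placement rule below rank 3000. Gaps were tandem for 240 members (57.01%), divergent for 144 (34.2%) and convergent for 37 (8.79%). Weaker regions had 56.1%, 29.7% and 14.1%. These shares are placed side by side without a test. In 85 members (20.2%) a gene body lay within 1000 bp, so part of the class is near a gene end.

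**Figure D2:**
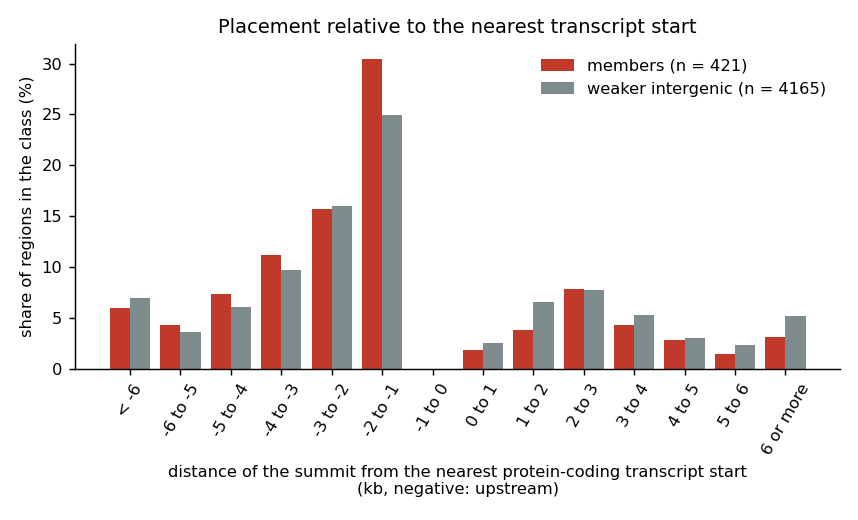
Share of members (red, n = 421) and of weaker intergenic regions (grey, n = 4165) by distance of the summit from the nearest protein-coding transcript start, in kb, negative upstream. The tallest bar of the members, 30.4%, is at 1 to 2 kb upstream, and the bin just upstream is empty by construction.

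Non-coding genes outside the excluded small RNA types lay near some members. An annotated ncRNA gene was within 100 bp of 68 members (16.2%, exact 95% binomial interval 12.8 to 20.02%). The share was 7.66% in weaker, 12.1% in strong promoter and 7.99% in strong genic regions. A pseudogene was near 26 members (6.18%), a lower share than the 12.1% of weaker regions and a higher one than the 0.186% of strong promoter and 0.266% of strong genic regions. A lincRNA gene was near 6 members (1.43%), against 1.10% of weaker, 0.186% of strong promoter and 0.266% of strong genic regions. These shares were not tested. The RefSeq tRNA pseudogenes Y22D7AR.t1 and Y94H6A.t1 lay at the members of ranks 2279 and 2663. None of these gene types lay near 323 members (76.7%).

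Neighbouring members were joined to see how many loci they form. With a join within 1000 bp there were 405 loci, so most members stood alone. Within 5000 bp, 359 members were assigned to 324 genes by nearest start, 25 genes had 2 members and 5 had 3. Those 5 are aqp-2, an aquaporin, chdp-1, a calponin homology domain protein, cmd-1, din-1 and unc-70, the beta spectrin. At unc-70 the members had pooled signals of 121, 104 and 81.3 at 1587, 3105 and 4327 bp upstream. At din-1 they had 195, 108 and 76.3 at 1512, 2439 and 3849 bp upstream. At these 2 of the 5 genes the signal was lower in the members further upstream. At chdp-1, though, the member 1224 bp upstream had 67.7, the lowest signal of all members. At cmd-1 a member among the 15 of highest signal lies close to the 5000 bp limit. The order was not tested. At aqp-2 the 115 and 81.2 members overlap, downstream of the start, and another at 86.7 lies 1112 bp upstream.

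Of the members, 48 (11.4%) had their nearest start in a gene of 1 of 14 lists, against 12.2% of weaker regions and 10.04% of strong promoter regions, so the share was near that of the other classes. Transcription factor lists took 20 members (4.75%), against 3.41% of weaker regions. The homeobox and PAX list had 6 (1.43%, against 0.936% of weaker regions), led by zag-1, a zinc finger homeodomain factor of neurons, with 95.4 at 3200 bp upstream. The next were egl-5, a posterior Hox gene, with 79.1 at 1911 bp upstream and ceh-43, a Distal-less homologue, with 76.8 at 1163 bp upstream. Of the zinc finger, GATA, T-box, forkhead and SOX list there were 10 (2.38%, against 1.10%), led by 2 members near ztf-6 (157 and 98.2) and 1 near ztf-29 (99.4). Nuclear hormone receptors had 3 members (0.713%, against 1.13%), near nhr-175, nhr-88 (84.9) and nhr-277 (69.7), and the bHLH list had 1 (0.238%, against 0.240%), near hlh-2 (68.4), the Daughterless homologue.

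The excretory canal and V-ATPase list had 4 members (0.9501%, against 0.456% of weaker regions), the 3 at aqp-2 and 1 near exc-6, a formin gene, with 72.9. The Wnt and planar polarity list had 4 (0.9501%, against 0.504%), led by pop-1 (77.0), the TCF factor, mig-1 (76.9), a Frizzled receptor, and dsh-1 (70.1), a Dishevelled gene. Axon guidance and adhesion had 4 (0.9501%, against 1.03%), led by ptp-3 (83.6), a receptor tyrosine phosphatase, madd-2 (75.8) and lad-2 (70.2). Chemoreceptors had 7 (1.66%), against 3.36% of weaker regions, led by 2 members at sre-47 (109 and 103) and srh-203 (81.7). The sre-47 members have 51 summit bases in 35 and 10 genome copies, and each is covered in only 1 replicate list. Neuropeptides had ins-19 (88.9) and flp-16 (69.9), F-box proteins fbxa-55 (126) and fbxb-69 (87.9), ribosomal proteins rpl-21 (98.9) and rps-28 (70.2), collagens sqt-3 (80.2) and rol-8 (72.0), and histones hil-7 (73.1). Histones had 1 member (0.238%, against 0.120% of weaker regions), and each of the others in that sentence had 2 (0.475%). Weaker regions had 0.672% for neuropeptides, 1.08% for F-box proteins, 0.336% for ribosomal proteins and 0.480% for collagens. Strong promoter regions had 2.60% for ribosomal proteins, 1.67% for histones, 1.12% for F-box proteins, 0.186% for collagens and 0% for neuropeptides. C-type lectins had 0 of 421, which allows up to 0.872% by the exact interval, against 0.792% of weaker regions. With counts this small the lists are given as a description, without a test.

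Base composition differed between the classes. The GC content of the 201 bp window had a median of 47.3% in members (quartiles 43.3 and 51.7%), 40.8% in weaker regions, 44.3% in strong promoter regions and 47.3% in strong genic regions. Members that were IDR peaks had a median of 52.2% and the others 46.3%. Within intergenic regions the classes of higher signal had the higher median GC content. Strong promoter regions had a higher median signal than members and a lower median GC content. In strong genic regions both medians were near those of members. The part of base composition in the signal was not tested.

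**Figure D3:**
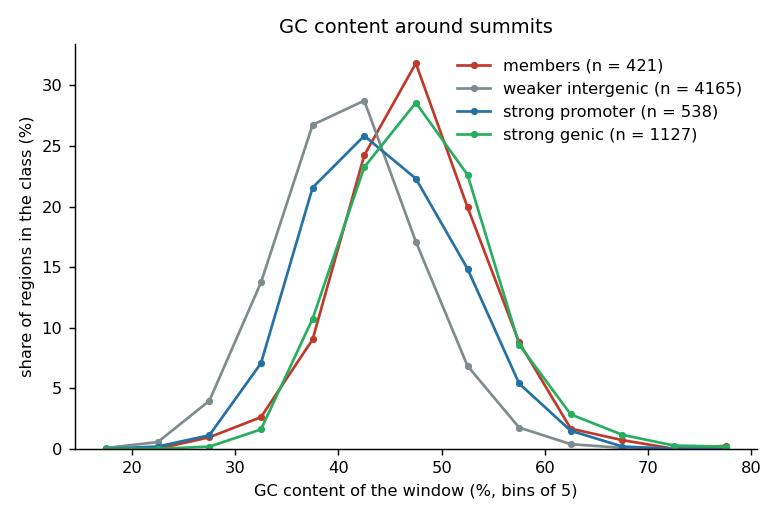
Share of regions (vertical axis, %) in bins of 5 points of GC content of the 201 bp window (horizontal axis) for 4 classes. The members peak at higher GC than weaker intergenic regions and near the strong genic regions, with medians of 47.3%, 40.8% and 47.3%.

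Sequence was not used to choose the members, so the presence of 11 features in the window was tested, on both strands, with Fisher's exact test, two-sided. The motifs searched included ATGCAAAT, the same octamer with 1 mismatch, GAGAGAGA and CACACACA. A GATA site was searched as TGATAAG. The E-box searched was CAGCTG. A SOX half-site was searched as ACAATG. The B box of tRNA promoters was searched as GGGTTCGA, and the telomere repeat as TTAGGC in 2 tandem copies. The other features were a soft-masked summit base and repeated 51 summit bases. Members were compared with weaker regions and with strong promoter regions, 22 tests adjusted together by Benjamini-Hochberg. Regions are not biological replicates and neighbours are not independent, so the p-values describe these lists.

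GAGAGAGA was present at 59 members (14.01%) and 5.76% of weaker regions, an odds ratio of 2.66 (95% interval 1.93 to 3.64, adjusted p = 5.53e-08 by Fisher's exact test). CACACACA was present at 51 members (12.1%) and 4.32% of weaker regions, an odds ratio of 3.05 (2.15 to 4.27, adjusted p = 2.40e-08 by the same exact test). Either repeat was at 99 members (23.5%), against 9.58% of weaker, 15.8% of strong promoter and 13.3% of strong genic regions. Of the 99, 11 held both, which is 2.61% of members. Both were at 0.504% of weaker, 1.30% of strong promoter and 1.15% of strong genic regions. In a logistic regression with the GC percent of the window as a covariate, the odds ratios were 1.85 and 2.14, and both passed the threshold. A soft-masked summit was less frequent, at 19.2% of members and 28.1% of weaker regions (odds ratio 0.608, adjusted p = 0.000524 by the exact test). With the GC covariate that odds ratio was 0.942, which did not pass.

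ATGCAAAT was found in 14 members (3.33%) and 2.04% of weaker regions, an odds ratio of 1.65 (0.858 to 2.96, adjusted p = 0.241, exact test), which did not pass the threshold. At this number of members the interval includes 1 and reaches 2.96. The 6-mers inside the octamer were no more frequent at members, with ATGCAA at 11.6% against 12.1%. Of the other features, the E-box (6.18% against 3.99%, adjusted p = 0.126), GATA site (1.66% against 3.12%, adjusted p = 0.241), octamer with 1 mismatch (24.9% against 28.9%, adjusted p = 0.241), telomere repeat (1.66% against 1.13%, adjusted p = 0.496), B box (1.19% against 0.816%, adjusted p = 0.517), repeated summit bases (3.09% against 2.71%, adjusted p = 0.739) and SOX half-site (10.5% against 10.1%, adjusted p = 0.879) did not pass in exact tests either.

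Against the 538 strong promoter regions, 0 of 11 features passed the threshold by Fisher's exact test with adjustment, and 3 had an unadjusted p under 0.05. These were GAGAGAGA (14.01% against 9.29%, odds ratio 1.59, 1.04 to 2.43), CACACACA (12.1% against 7.81%, 1.63, 1.04 to 2.57) and the telomere repeat, with 7 members against 1 promoter region (9.06, 1.16 to 410). Each had an adjusted p = 0.102 in the exact test. The octamer was at 2.04% of promoter regions (odds ratio 1.65, 0.686 to 4.06), the E-box at 7.81% (0.778), the SOX half-site at 8.92% (1.19) and the GATA site at 1.49% (1.12). The B box was at 0.558% (2.14), the octamer with 1 mismatch at 29.2% (0.807), a soft-masked summit at 19.1% (1.01) and repeated summit bases at 1.86% (1.68).

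**Figure D4:**
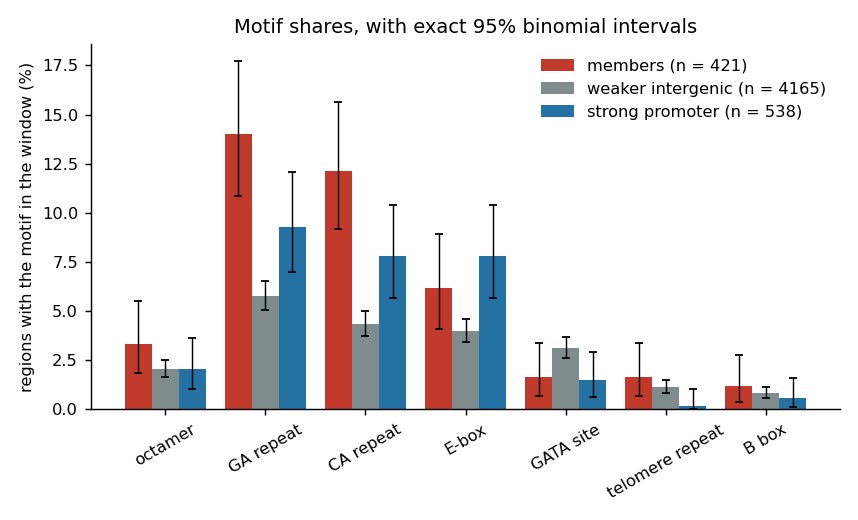
Share of regions (vertical axis, %) with each of 7 motifs in the 201 bp window in members, weaker intergenic regions and strong promoter regions; bars carry exact 95% binomial intervals, which cover counting error only. The GA and CA repeats are higher in members (14.01 and 12.1%) than in weaker regions (5.76 and 4.32%), and the octamer intervals overlap.

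Octamer members were described in full since CEH-6 is a POU protein. The 14 members hold 17 octamers, 6 on the plus and 11 on the minus strand, at 0.5 to 91.5 bp from the summit (median 37.5), with 10 within 50 bp. They lie near R02D5.24 (rank 431, signal 135), Y17D7C.2 (121), cki-2 (99.4), a cyclin-dependent kinase inhibitor, Y50D4C.12 (93.6), K05C4.9 (93.5), lim-8 (85.02), F53C3.1 (82.3) and gly-20 (79.5). The rest lie near C50A2.3 (78.5), C15C6.1 (78.4), drn-1 (75.5), idpa-1 (71.0), fln-1 (69.8), the filamin gene, and tcl-2 (68.2). The members at ranks 1370, 2034 and 2911 hold 2 octamers each. Their median signal was 80.9, beside 79.1 in the 407 members without one, and 2 of the 14 were IDR peaks. Among all 3000 strong regions 70 (2.33%) held an octamer.

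Every 6-mer was counted on both strands and compared with weaker regions in the same way. Members held 205 more often, which is 9.86% of those tested, and 186 less often, which is 8.94%, at an adjusted p under 0.05 (Fisher's exact test). Of the 205, 191 have 3 or more G or C, and of the 186, 176 have at most 2, while 1360 of the tested 6-mers have 3 or more and 720 at most 2. GAGAGA was at 41.6% of members, 20.5% of weaker and 31.2% of strong promoter regions, and ACACAC at 28.0%, 13.8% and 20.1%. AAAAAA was at 25.7%, 52.2% and 51.3%. Of the 64 6-mers made only of purines on 1 strand, 34 were more frequent and 5 less.

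**Figure D5:**
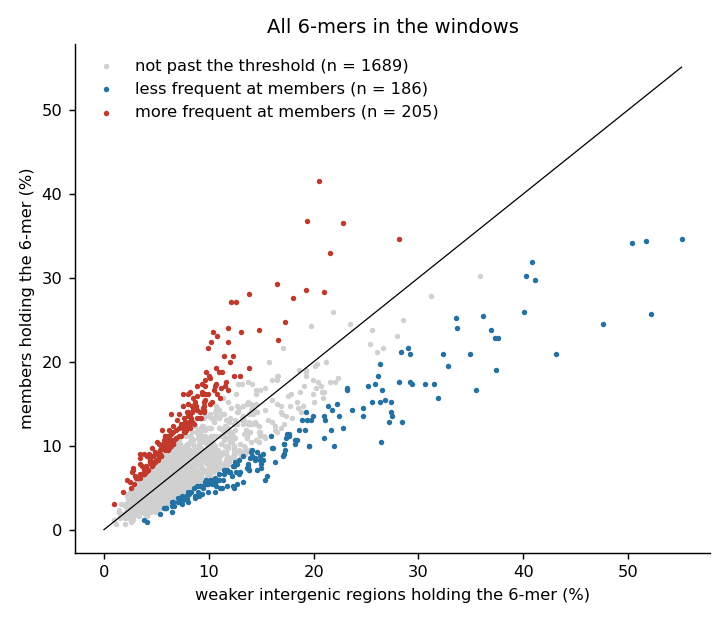
Share of weaker intergenic regions (horizontal axis, %) and of members (vertical axis, %) that hold each 6-mer; red and blue points passed the threshold, 205 more and 186 less frequent at members. The line marks equal shares.

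Exact copies of the summit sequence were counted apart from the soft-masked summits and the GA or CA repeats. Soft-masked summits were at 81 members (19.2%, against 28.1% of weaker regions). GA or CA repeats were at 99 members (23.5%, against 9.58% of weaker regions). The soft-masked share of the window had a median of 12.9% in members and 22.9% in weaker regions. The 51 bases around the summit occurred more than 1 time in the genome for 13 members (3.09%), with 54 copies at rank 1572, 40 at rank 676, 35 at rank 698 and 22 at rank 522. Of the 13, 5 were among the 55 IDR peaks (9.09%) and 8 among the 366 other members (2.19%), a description without a test. How reads that map to several places were treated is not stated, and the part of other copies in the signal at these members was not tested. The telomere repeat was at 7 of the 366 other members (1.91%) and 0 of the 55 IDR peaks. That 0 allows up to 6.49% by the exact interval, so nothing is read from this split.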

How the data were processed

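ChIP-seq region lists from 2 biological replicates of 1 group were used. The authors deposited 1 list per replicate, 1 for the pooled reads and 1 of IDR peaks, on ce11 per the labels. The deposited signal of each region comes from the authors' caller, relative to 1 control, and its scale is not stated. For the caller, aligner and read filters, the details were not given in the sources. No read counts are in the lists, so the depth is unknown. Intervals cover counting error over regions only, and replicate lists were compared only by rank or within a list.

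Summits were placed on the Ensembl 115 annotation of WBcel235, with sequence from its RefSeq copy, whose chromosome lengths match. Python 3.11.15, pandas 2.3.3, SciPy 1.17.1, statsmodels 0.14.6 and matplotlib 3.10.9 were used. Shares carry exact Clopper-Pearson 95% intervals. Features and 6-mers were compared with Fisher's exact test, two-sided, with Benjamini-Hochberg adjustment and a threshold of 0.05. The 22 feature tests formed 1 family and all 6-mers another. With GC percent as a covariate, the feature odds ratios and p-values came from logistic regression in place of the exact test, with the same adjustment. The 6-mer comparison was run on simulated data, with 6-mers planted in regions drawn from the weaker regions. Both simulated sets had that source, so the difference in GC content between members and weaker regions was not covered.

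The members, gene lists and features were chosen with earlier results of these data known. Besides the settings reported, 14 others were run for the tests, 11 planned and 3 chosen after seeing the data (1 region per 1000 bp, soft-masked summits left out, GC percent as a covariate). Named genes are those nearest the 15 members of highest signal, up to 3 per list of highest signal, the 5 members just inside and 5 regions just outside the limit, and members with ATGCAAAT. Genes with 3 members, ncRNA neighbours, repeated members and the printed sequences were picked after their values were seen. Sequences were printed for the 5 members of highest signal and the members with more than 1 octamer. The strongest member with the GA repeat, CA repeat, octamer or telomere repeat was also printed, from members outside chromosome I only.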

Additional observations from a re-analysis of the deposited data

How the results depend on the processing

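Of 378 values under other settings, 303 kept their direction and side of the threshold, or stayed within 1.5 times for counts. Most of the 22 feature tests had not passed in the main setting, so the 303 include values that stayed short of the threshold. Of the rest, 33 odds ratios crossed 1, 18 passed only in the other setting and 3 passed only in the main one. The remaining 21 were counts that changed by more than 1.5 times. The number of members was 407 to 425 when 1 replicate list replaced the pooled list, 174 with the 1500 regions of highest signal and 55 with the IDR peaks alone. The octamer odds ratio was 1.58 to 1.64 in the replicate lists and passed the threshold only with a promoter length of 2000 bp (2.40, adjusted p = 0.0445, exact test). 6-mer calls numbered 313 to 400 in the replicate lists, 106 with the IDR peaks, 198 with a 2000 bp promoter and 175 in a 50 bp window. Features that passed against weaker regions numbered 3 in both replicate lists, 1 with the IDR peaks, 5 with a 500 bp promoter and 5 in a 200 bp window. Against promoter regions 0 passed in the main setting, 1 in each replicate list, 2 with the 1500 regions, 2 with a 2000 bp promoter, 3 with 500 bp, 1 without other non-coding genes and 3 in a 200 bp window. The repeats thus passed against promoter regions in some settings, and the cause was not tested. GAGAGAGA against weaker regions did not pass with the IDR peaks (2.86, adjusted p = 0.0921, exact test). The odds ratio in the main setting was 2.66, and the IDR setting had only 55 members. With the IDR peaks or the 1500 regions, the weaker regions were all other intergenic regions by the same placement. Both groups therefore differ from those of the main setting.

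Odds ratios that crossed 1 were of features that had not passed in the main setting. Against weaker regions, repeated summit bases gave 1.14 in the main setting. They gave 0.521 without replicate 1, 1.39 without replicate 2 and 0.967 with 1 region per 1000 bp. They gave 0.305 without soft-masked summits and 0.747 with the GC covariate, but 3.64 with the IDR peaks (adjusted p = 0.118, exact test). The B box gave 0 with the IDR peaks, 0.572 without replicate 1 and 1.31 without replicate 2. The E-box gave 0.862 with the IDR peaks and 0.859 to 1.26 when 1 replicate was left out. The SOX half-site gave 0.898 with 1500 regions, 0.889 with the IDR peaks, 0.816 to 1.05 when 1 replicate was left out, 0.939 and 0.903 with windows of 50 and 200 bp and 0.966 without soft-masked summits. The octamer with 1 mismatch gave 1.03 with the IDR peaks and 1.15 with the GC covariate. The telomere repeat gave 0.975 with 1500 regions, 0 with the IDR peaks, 0.866 to 1.09 when 1 replicate was left out and 0.973 with the GC covariate. Against promoter regions, repeated summit bases gave 0.955 to 1.77 when 1 replicate was left out and 0.852 without soft-masked summits. With the IDR peaks they gave 5.61 (adjusted p = 0.118, exact test), from 1.68 in the main setting. The B box gave 0 with the IDR peaks and 0.556 to 1.88 when 1 replicate was left out. The E-box gave 1.04 with 1500 regions and 1.08 with 500 bp. The GATA site gave 0 with the IDR peaks, 0.955 with small RNA genes 500 bp away and 0.831 without other non-coding genes. A soft-masked summit gave 0.990 with a 2000 bp promoter, 0.987 with small RNA genes 500 bp away, 0.932 without repeated summits and 0.994 with 1 region per 1000 bp. The telomere repeat, 9.06 against promoter regions, gave 2.24 to 2.83 when 1 replicate was left out and 17.1 with a 2000 bp promoter. No paired analysis was possible because there is 1 group.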
